A study of Homo sapiens with 12 samples.

Results

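Keratins are the epithelial intermediate filament proteins, and their genes were followed here through RNA sequencing of a pair of cholangiocarcinoma cell lines. The members were every gene named KRT with a number from 1 to 86 and an optional letter A, B or C. Pseudogenes and keratin-associated proteins were left out, which gave 54 members among 60651 genes in the deposited count table. EGI-1, an established cholangiocarcinoma line, was treated for 72 h with vehicle, with 0.5 µM decitabine, with talazoparib at 200 nM, or with the combination of the drugs at these doses. HUCCT1, a further established cholangiocarcinoma line, received vehicle or 1 µM decitabine for 72 h. Every one of the 6 arms has 2 libraries, 12 in all, and nothing in the sources used here says that those libraries were separate cultures, so p-values measure only the spread between these libraries. Decitabine is a nucleoside analog that is built into DNA and traps DNA methyltransferases, and talazoparib inhibits PARP enzymes. Column names of the talazoparib libraries include the number 50, whereas the labels give 200 nM.

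Keratin filaments are built from heteropolymers of an acidic type I and a basic type II protein, so each cell needs at least one of each type. Simple epithelia such as the bile duct are known for KRT8 with KRT18 and for KRT7 with KRT19. Stratified squamous epithelium has KRT5 with KRT14 and KRT15 in its basal layer and KRT4 with KRT13 or KRT1 with KRT10 above it, depending on the site. KRT6A, KRT6B and KRT6C with KRT16 and KRT17 are the keratins of wounded and rapidly dividing squamous epithelium. A further set, KRT31 to KRT40 and KRT81 to KRT86, forms the hair shaft. By these roles the 54 members fell into 4 simple biliary keratins, 2 other simple keratins (KRT20 and KRT23), 19 squamous keratins, 3 other epithelial keratins (KRT24, KRT79 and KRT80), 9 of the inner root sheath and companion layer and 17 of hair. The 19 squamous keratins comprised 3 basal, 5 stress and proliferation and 11 suprabasal or site-specific members.

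The libraries held 23139065 to 33181930 counts in EGI-1 and 32519985 to 34965627 in HUCCT1. Of the biliary markers EPCAM, SOX9, CDH1 and KRT19 were detected in every library, whereas KRT7, the other keratin used to recognise bile duct cells, was low in EGI-1. Of 6 hepatocyte markers ALB, APOA1, CYP3A4 and TTR did not exceed 0.169 CPM in any library, whereas CPS1 was at 0.948 to 2.06 CPM and SERPINA1 at 21.7 CPM or more in each library, with 70.4 and 47.1 CPM in HUCCT1 vehicle. CPM is a count relative to the TMM-adjusted total of its library, with TMM factors set within a line. The second EGI-1 combination library stood apart. It had 13.1 CPM of PTPRC and 5.10 CPM of CD3E, both genes of immune cells, against at most 0.211 and 0.121 CPM in the other 7 EGI-1 libraries. The summed level of the 5 immune and endothelial markers was 29.1 CPM in it and 6.30 to 11.7 CPM in the other EGI-1 libraries. The same library held 19 counts of KRT72 and 8 counts of KRT73, both at 0 in the other 7 EGI-1 libraries. These genes are keratins of the hair root sheath, named here after their values were seen, and the part of the immune markers in their counts was not tested. For called keratins, results that rest on this library are given with and without it, and for partner genes in part.

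In vehicle-treated EGI-1 cells most keratin mRNA came from simple keratins and from a single hair keratin. Levels of different genes are compared as CPM per kb of the canonical transcript in GENCODE 44. KRT8 stood at 2610 and 2586 CPM per kb in the vehicle libraries. KRT81, a hair keratin, followed at 2477 and 2247 CPM per kb. KRT19 was at 1120 and 1180 CPM per kb and KRT18, the type I partner of KRT8, at 1082 and 1054 CPM per kb. These 4 genes kept that order in both libraries and their ranges did not overlap. In CPM, without division by length, KRT8 (4656 and 4614) and KRT81 (4778 and 4334) did overlap. The order of these genes therefore rests on the transcript lengths used. KRT80, a type II keratin of many epithelia, was at 250 and 252 CPM per kb, KRT86 at 59.8 and 65.4, KRT7 at 25.3 and 27.6, and KRT5 at 20.1 and 19.2 CPM per kb. KRT17, with 7.07 and 8.63 CPM per kb, could not be separated from KRT15, with 7.18 and 7.52. In HUCCT1 vehicle cells KRT7 led with 3611 and 4143 CPM per kb. KRT8 at 2037 and 2029, KRT19 at 1608 and 1979, KRT81 at 982 and 1065 and KRT18 at 738 and 748 CPM per kb came next, again without overlap between neighbours. KRT80 reached 181 and 213 CPM per kb, and no other member exceeded 7.27 CPM per kb in these libraries. Summed over members, type I keratins stood at 0.400 to 0.435 of the type II level in EGI-1 and at 0.347 to 0.384 in HUCCT1.

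**Figure D1:**
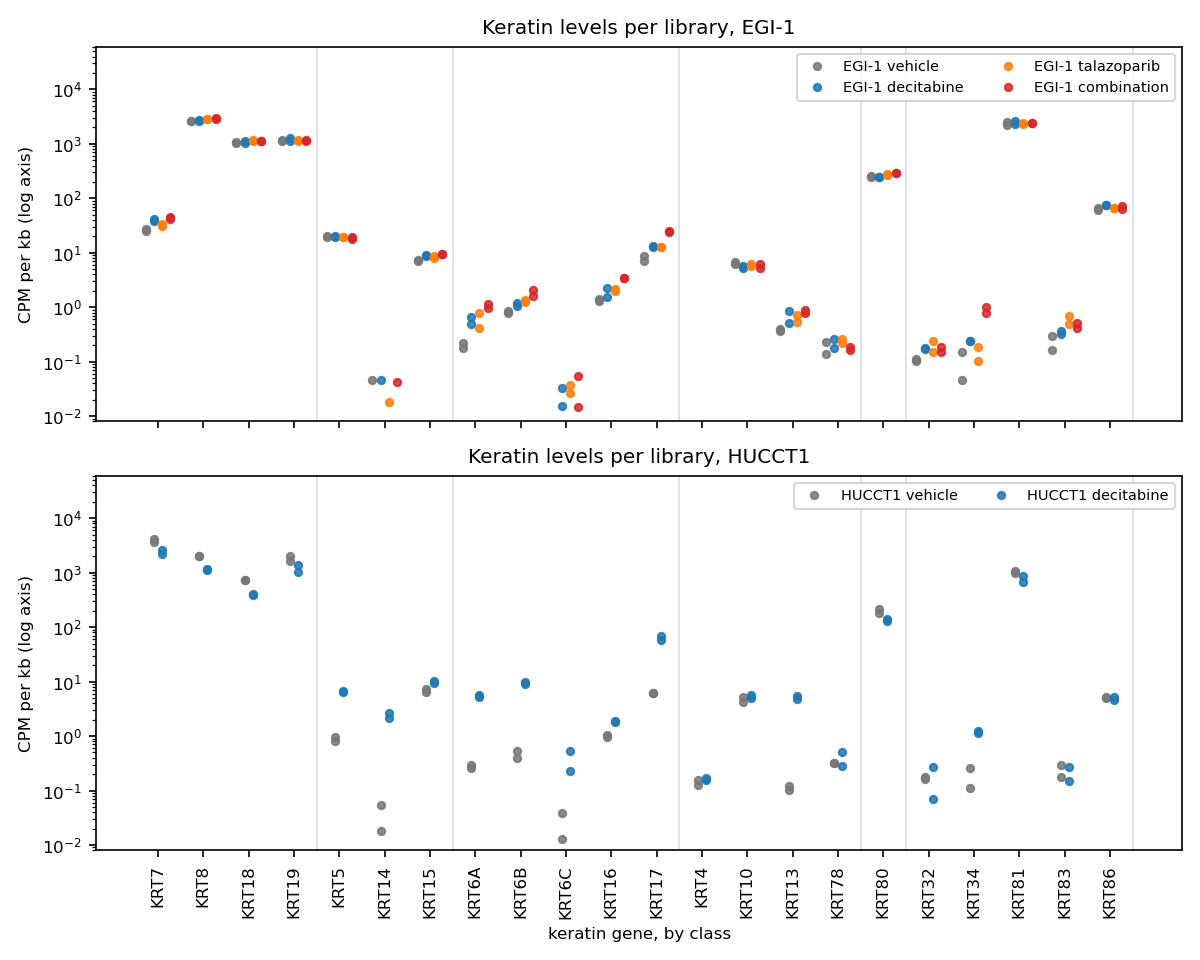
Level of each keratin that passed the low-count filter in either line, as CPM per kb of canonical transcript on a log axis, with 1 point per library and vertical lines between classes; values of 0 are not drawn. KRT7 lies at 25.3 and 27.6 in EGI-1 vehicle and at 3611 and 4143 in HUCCT1 vehicle, and KRT81 lies among the simple keratins in both lines.

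Of the remaining members, 32 did not pass the low-count filter in either line, 19 had 3 counts or fewer in every library, and 8 of those, KRT23, KRT24, KRT25, KRT26, KRT33A, KRT35, KRT37 and KRT39, were at 0 in all 12 libraries. A count of 3 or fewer does not show that a gene is silent. KRT20, a keratin of gut epithelium, had at most 5 counts in any EGI-1 library and 0 in HUCCT1. The suprabasal epidermal type II keratin KRT1 also stayed at 3 counts or fewer, while KRT10, its usual type I partner, was measured at 9.21 to 14.6 CPM across all 12 libraries.

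Reads of several keratins can match more than 1 gene, and whether such reads were counted is not stated in the sources used here. Of the 50-base windows of the canonical KRT81 transcript, 44.6% also occurred in transcripts of other genes, most often KRT86, whose shared percentage was 44.8%. For windows of 100 bases these values were 30.3% and 32.0%. KRT86 counts were 2.81% to 3.67% of KRT81 counts in EGI-1 and 0.571% to 0.803% in HUCCT1, so their ratio was not fixed across the libraries. The KRT6 genes shared 39.2% (KRT6A), 46.6% (KRT6B) and 53.1% (KRT6C) of their 50-base windows with other transcripts, mostly with each other, and their separate values are uncertain. At 100 bases they shared 18.2%, 24.4% and 31.4%. The values for KRT14, KRT16 and KRT17 were 24.2%, 21.8% and 18.3% at 50 bases and 6.05%, 7.12% and 0.353% at 100 bases. KRT8 (39.2% at 50 bases and 7.12% at 100) and KRT18 (52.8% and 18.5%) have many processed pseudogenes, and the exons of this gene pair overlap by 525 bases on opposite strands of chromosome 12. Counts assigned to 51 KRT8 pseudogenes came to 0.675% to 1.51% of KRT8 counts, and those of 68 KRT18 pseudogenes to 1.12% to 3.13% of KRT18 counts. KRT5, KRT15, KRT19 and KRT80 were nearly free of such windows at 50 bases, at 4.52%, 1.02%, 1.79% and 0.418%.

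The first comparison asked how the lines differ without drug. KRT7 was the member with the largest called difference. It had 1190 and 1185 counts in the EGI-1 vehicle libraries and 195897 and 227208 in those of HUCCT1, a log2 difference of 7.42 ± 0.12 (SE, n = 2 libraries per arm, edgeR adjusted p = 6.91e-19). KRT7 lies at chr12:52232520-52252186 (GRCh38, plus strand) and its exons overlap those of the antisense gene KRT7-AS, at 5.57 and 4.84 CPM in EGI-1 vehicle and 90.7 and 95.6 CPM in HUCCT1 vehicle. KRT19, a type I gene at chr17:41523617-41528308 on the minus strand, was also higher in HUCCT1, by 0.87 ± 0.13 (adjusted p = 9.93e-05). KRT5, the basal type II keratin at chr12:52514575-52520530 on the minus strand, went the other way. It had 1301 and 1134 counts in EGI-1 vehicle and 61 and 73 in HUCCT1 vehicle (log2 difference −4.23 ± 0.13, adjusted p = 2.72e-15). KRT86 (−3.39 ± 0.10, adjusted p = 1.54e-15), KRT13 (−1.51 ± 0.42, 0.00534), KRT81 (−0.98 ± 0.11, 2.21e-07) and KRT18 (−0.30 ± 0.08, 0.00289) were lower in HUCCT1 as well. KRT4 was at 0 in both EGI-1 vehicle libraries against 11 and 9 counts in HUCCT1, at least 2.66-fold higher when EGI-1 is set to 3 counts per library. KRT6B and KRT78 passed at −0.58 and 1.00 with adjusted p of 0.0346 and 0.0490. KRT8, KRT14, KRT15, KRT6A, KRT6C, KRT16, KRT17, KRT10, KRT80, KRT32, KRT34, KRT83 and KRT85 did not pass. In all 10 of 23 tested members were called, 4 higher and 6 lower, against 28.8% and 26.6% of all genes tested (55.4% in either direction), so keratins were not called more often than genes at large. KRT4 passed the low-count filter only through HUCCT1 libraries, where it is high, so its call adds no support to these counts. Column names carry the code L3 in the HUCCT1 libraries and L4 in those of EGI-1. No source used here explains the code or says whether the lines were sequenced together. Line and sequencing run cannot be told apart. The calls of KRT18, KRT6B and KRT78 rested on single libraries: without the first EGI-1 vehicle library their adjusted p were 0.0607, 0.0718 and 0.298. KRT6B was also lost without the second EGI-1 (0.177) or the first HUCCT1 vehicle library (0.248), and KRT78 without the first (0.105) or the second HUCCT1 vehicle library (0.132). With DESeq2 both KRT6B (0.0711) and KRT78 (0.138) missed the threshold, and KRT78 missed it without the low-count filter (0.0538).

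Decitabine in HUCCT1 moved simple and squamous keratins in opposite directions. Each of the 4 simple biliary keratins fell, and 9 of the 19 squamous keratins rose with none lower. Over the 22 members tested, 10 were called higher and 6 lower, against 19.6% and 13.9% of the 22479 genes tested (33.5% in either direction). Of the 10 called higher, KRT14, KRT6C, KRT13 and KRT34 passed the low-count filter only through the decitabine arm, where they are high, so their calls add no support to these counts. A lower level in bulk RNA cannot separate fewer cells expressing a gene from less RNA per cell. KRT8 stood at 3633 and 3621 CPM with vehicle and at 1970 and 2124 CPM with decitabine (log2 fold change −0.82 ± 0.10, adjusted p = 3.43e-07). KRT18 went from 1043 and 1057 to 576 and 550 CPM (−0.90 ± 0.10, adjusted p = 1.30e-07). Both genes of this type I and type II pair thus fell. KRT7 went from 5868 and 6732 to 3631 and 4151 CPM (−0.69 ± 0.10, adjusted p = 9.41e-06). KRT19 went from 2235 and 2751 to 1418 and 1886 CPM (−0.59 ± 0.12, adjusted p = 6.46e-04), and it missed the threshold with DESeq2 (adjusted p = 0.0795). For these 4 genes both decitabine libraries lay below both vehicle libraries. KRT7-AS counts were 3027 and 3228 with vehicle and 1517 and 1196 with decitabine, and without knowledge of strand use reads of the pair cannot be told apart. Counts of the KRT8 pseudogenes were 1079 and 1129 with vehicle and 1057 and 936 with decitabine. KRT80 also fell, from 703 and 823 to 506 and 546 CPM (−0.53 ± 0.11, adjusted p = 3.49e-04). KRT81 was 1894 and 2054 CPM with vehicle and 1309 and 1693 CPM with decitabine (−0.39 ± 0.11, adjusted p = 0.00852), but without the first decitabine library its value was −0.22 with adjusted p = 0.328.

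The basal squamous keratins rose from low levels. KRT14, the basal type I keratin at chr17:41582279-41586895 on the minus strand, had 3 and 1 counts with vehicle and 125 and 142 with decitabine. The pooled ratio was 68.6 with a 95% counting interval (Clopper-Pearson) of 26.5 to 254. This gene was tested only because its decitabine counts passed the low-count filter. Its partner KRT5 went from 1.83 and 2.16 to 14.5 and 14.7 CPM (log2 fold change 2.87 ± 0.18, adjusted p = 2.13e-12). KRT15, a further basal type I keratin, was at 11.1 and 12.4 CPM with vehicle and 17.5 and 15.9 CPM with decitabine (0.50 ± 0.14, adjusted p = 0.00581). The KRT15 call was lost without the first decitabine library (adjusted p = 0.0586) or the first vehicle library (0.0766). Counting intervals cover counting error only, since the reads carry no molecular identifiers.

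The stress and proliferation keratins rose in 5 of 5 members. KRT17, at chr17:41619442-41624842 on the minus strand, had 310 and 313 counts with vehicle and 3068 and 3435 with decitabine (3.35 ± 0.13, adjusted p = 1.88e-16). It was the most abundant squamous keratin after decitabine, at 86.2 and 104 CPM. KRT6B went from 0.929 and 1.24 to 20.7 and 22.8 CPM (4.32 ± 0.19, adjusted p = 1.56e-15). KRT6A went from 0.689 and 0.593 to 11.9 and 13.0 CPM (4.27 ± 0.22, adjusted p = 4.52e-14). These are the type II partners of KRT16 and KRT17. KRT6C had 1 and 3 counts with vehicle and 19 and 40 with decitabine, a pooled ratio of 15.2 (5.62 to 57.5). Of its windows, 53.1% at 50 bases and 31.4% at 100 bases also occurred in other transcripts, most often of KRT6B. KRT16 was at 1.77 and 1.60 CPM with vehicle and 3.01 and 3.10 CPM with decitabine (0.86 ± 0.24, adjusted p = 0.00780), and its call was lost without the second vehicle library (0.0556). Its log2 fold change was the smallest of the 5 stress keratins.

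Of the suprabasal keratins, KRT13 was the one of 4 tested that was called. KRT13, the type I keratin of the upper layers of mucosal epithelium at chr17:41500981-41505705 on the minus strand, had 7 and 6 counts with vehicle and 295 and 303 with decitabine (5.47 ± 0.29, adjusted p = 7.52e-14). An unnamed gene on the opposite strand overlaps 476 bases of its exons. KRT4, the type II partner of KRT13 in mucosa, had 11 and 9 counts with vehicle and 12 and 12 with decitabine (0.23 ± 0.57, adjusted p = 0.804). KRT10 (0.17 ± 0.15) and KRT78 (0.30 ± 0.36) did not pass. Of the 19 squamous members 7 did not pass the low-count filter.

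**Figure D2:**
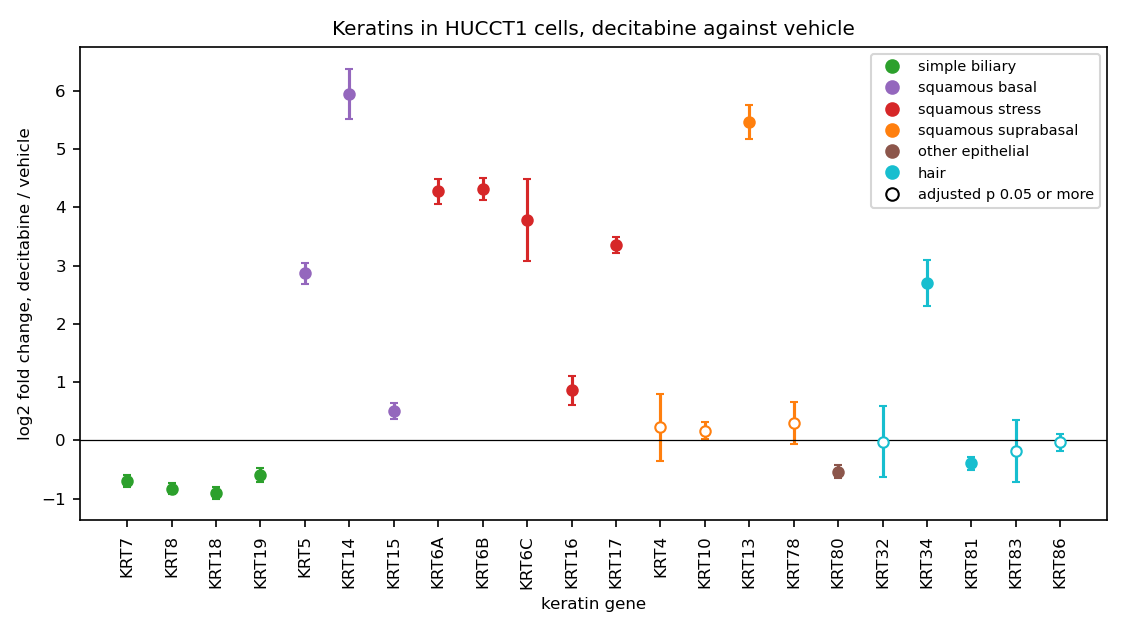
Log2 fold change of each tested keratin in HUCCT1 cells, decitabine over vehicle, with the SE from the edgeR fit as bars (2 libraries per arm) and colour by class; open symbols have an adjusted p of 0.05 or more. The 4 simple biliary keratins lie between −0.90 and −0.59, while KRT13 lies at 5.47; the fitted points of KRT14 and KRT6C rest on vehicle counts of 3 or fewer.

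Among hair keratins KRT34 rose. This type I gene at chr17:41377669-41382306 on the minus strand had 6 and 14 counts with vehicle and 67 and 67 with decitabine, 6.49-fold higher (adjusted p = 5.74e-06, SE of the log2 fold change 0.39). Its vehicle libraries differ, and leaving out 1 library gave log2 fold changes from 2.21, without the first vehicle library, to 3.40, without the second. KRT32 (−0.02 ± 0.61), KRT83 (−0.18 ± 0.54) and KRT86 (−0.03 ± 0.14) did not pass. Some members under the low-count filter had more counts with decitabine and are named after their values were seen. KRT75, of the companion layer of hair, had 1 and 1 counts with vehicle and 7 and 17 with decitabine (pooled ratio 12.3, 95% counting interval 3.06 to 108). KRT36 had 0 and 2 against 9 and 8 counts (8.73, 2.07 to 77.9). At such counts the values describe these libraries and carry no test.

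The start regions of the genes are shown because decitabine acts on cytosine methylation, which in human DNA is placed mainly on CG. RefSeq windows for GRCh38.p14 were matched for 34 of the 54 members, and the 250 bases before the transcript start were read from them. The windows of KRT5 (chr12:52520395-52520644) and KRT34 (chr17:41382307-41382556), which rose in HUCCT1, stand beside that of KRT10 (chr17:40822615-40822864), which was measured in every library and did not pass in any comparison. All 3 genes lie on the minus strand, and the sequences run 5′ to 3′ along the transcript. Capitals mark CG and the letters TATAAA, searched on both strands, whose 2 orientations can overlap.
KRT5: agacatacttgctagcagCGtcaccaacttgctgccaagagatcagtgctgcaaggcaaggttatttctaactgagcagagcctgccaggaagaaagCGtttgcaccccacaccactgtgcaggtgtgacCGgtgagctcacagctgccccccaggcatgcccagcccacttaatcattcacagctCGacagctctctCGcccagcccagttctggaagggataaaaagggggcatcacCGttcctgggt
KRT34: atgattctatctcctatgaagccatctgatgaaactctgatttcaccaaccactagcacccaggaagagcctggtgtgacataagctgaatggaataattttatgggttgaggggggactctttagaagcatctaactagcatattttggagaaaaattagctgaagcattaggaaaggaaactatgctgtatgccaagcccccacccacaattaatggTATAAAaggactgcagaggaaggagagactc
KRT10: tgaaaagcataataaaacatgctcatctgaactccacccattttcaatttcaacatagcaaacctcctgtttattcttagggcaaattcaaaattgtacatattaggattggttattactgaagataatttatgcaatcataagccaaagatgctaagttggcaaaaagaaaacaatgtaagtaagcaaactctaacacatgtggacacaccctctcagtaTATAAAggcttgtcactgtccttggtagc
The KRT5 window held 6 CG and no TATAAA, and 61.9% of the 35116 windows of all genes held as many CG. The windows of KRT34 and KRT10 held 0 CG, and TATAAA began 31 and 29 bases before the start. The riser KRT34 and KRT10 were therefore alike in both letters counted. The 38 windows of the 34 members had a median of 2 CG, against 11 over all windows, and 21 of them held TATAAA on either strand, against 10.7% of all windows. Of the keratins called in HUCCT1 with decitabine, only KRT5, KRT8 and KRT34 had a window. The KRT8 window was set by a transcript start 21393 bases from the canonical one. The median and the TATAAA count therefore leave out most of the called keratins. The CG and TATAAA counts describe the windows and do not mark a site.

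The composition of the keratin pool in HUCCT1 shifted while simple keratins still made up most of it. Summed simple biliary keratins stood at 7994 and 8899 CPM per kb with vehicle and at 4767 and 5491 with decitabine. Summed squamous keratins stood at 21.1 and 21.0 CPM per kb with vehicle and at 103 and 116 with decitabine. As a percentage of all keratin CPM per kb, squamous members went from 0.230 and 0.206 to 1.81 and 1.75, and simple biliary members from 87.0 and 87.2 to 83.8 and 82.8. The groups did not overlap in any of these sums. All keratins together took 1.52% and 1.65% of counts with vehicle and 0.990% and 1.14% with decitabine. With 2 libraries against 2 an exact permutation test cannot give a two-sided p below 0.333, so these sums are given without a test.

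**Figure D3:**
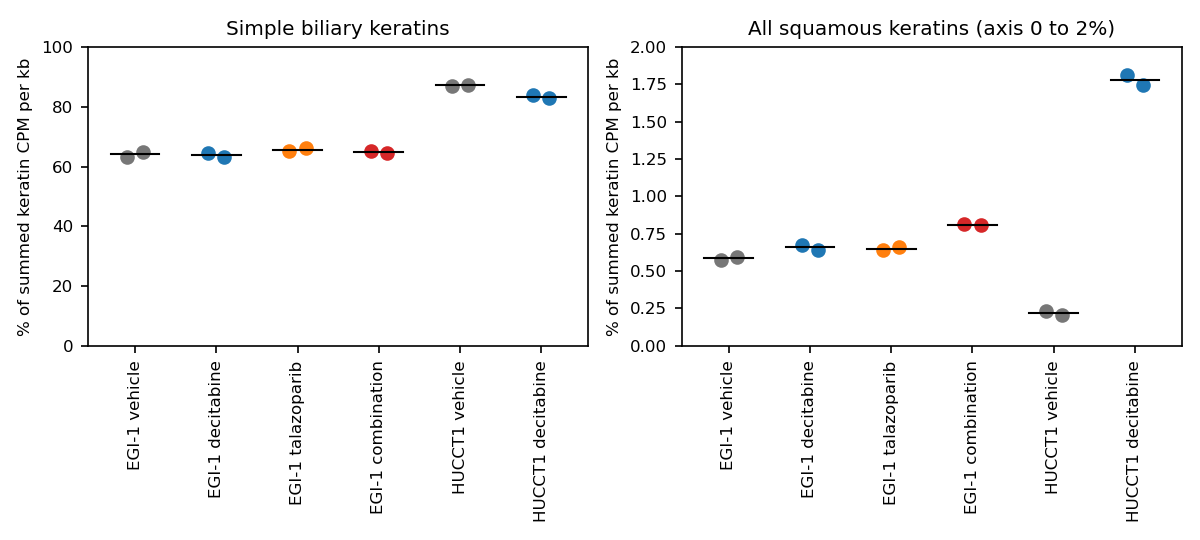
Simple biliary keratins (left) and all squamous keratins (right) as a percentage of the summed keratin CPM per kb, with 1 point per library and a line at the mean of 2 libraries. The right panel spans 0 to 2%, where HUCCT1 goes from 0.230 and 0.206 with vehicle to 1.81 and 1.75 with decitabine and EGI-1 reaches 0.813 and 0.810 with the combination.

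Genes that anchor keratin filaments or act in squamous cells changed in part. In HUCCT1 with decitabine 19.6% of all genes tested were called higher and 13.9% lower, and the counts of the short lists here are to be read beside these. Of 13 desmosome genes 10 were tested, and 4 were higher and 2 lower. The plakophilin PKP1, which binds keratin at desmosomes of stratified epithelium, went from 3.77 and 5.30 to 42.5 and 44.5 CPM (3.26 ± 0.15, adjusted p = 6.45e-15). JUP (0.45 ± 0.11) and PERP (0.37 ± 0.11) were higher and PKP3 (−0.63 ± 0.12) lower. Of the hemidesmosome genes, which anchor basal keratin filaments to the basement membrane, the integrin subunit ITGB4 fell (−0.66 ± 0.11). Of the 4 linker proteins, all tested, EPPK1 rose and EVPL and PPL fell. Of 14 cornified envelope genes 7 were tested, and 4 were higher, among them TGM1 (1.64 ± 0.16) and SPRR2D (2.04 ± 0.24), and 2, FLG and SCEL, were lower, while IVL was at 0 in the 4 HUCCT1 libraries. Of 6 transcription factors of squamous cells 5 were tested, of which KLF4, GRHL3, ZNF750 and TP63 were higher and TFAP2A was lower. TP63, the regulator that basal squamous cells depend on, went from 1.05 and 1.10 to 5.20 and 3.35 CPM (1.99 ± 0.27, adjusted p = 1.80e-06). Of 7 other intermediate filament genes 6 were tested and 5 were higher, with NES at 1.83 ± 0.18, and VIM was lower (−0.59 ± 0.11). The filaments INA and PRPH and the envelope gene SPRR2E passed the low-count filter only through the decitabine arm, where they are high. Their calls therefore add no support to these counts, and they are named after their values were seen. The summed level of 6 fibroblast and stroma markers was 33.9 and 33.8 CPM with vehicle and 151 and 177 with decitabine, mostly COL1A1, with DCN at 0 and then at 0.337 and 0.211 CPM. LUM, of the same list, went the other way, from 9.38 and 6.55 to 4.22 and 3.44 CPM. The summed level of 5 immune and endothelial markers was 4.85 and 3.88 CPM with vehicle and 15.7 and 17.4 with decitabine. Most of it was VWF (3.89 and 2.93, then 11.2 and 13.0) and PECAM1 (0.749 and 0.563, then 3.41 or more). CD3E went from 0 and 0.0296 to 0.478 and 0.693 CPM. PTPRC stayed at or below 0.119 CPM, and CD68 overlapped between the arms. The part of these markers in the keratin changes was not tested.

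The combination in EGI-1 raised stress keratins and left KRT18, KRT19 and KRT5 without a call. Of the 19 members tested 10 were called higher and none lower, against 11.1% and 7.61% of the 22406 genes tested (18.7% in either direction). KRT17 rose most clearly. It stood at 10.7 and 13.1 CPM with vehicle and at 38.4 and 36.8 CPM with the combination (1.66 ± 0.10, adjusted p = 5.51e-09). KRT6A had 15 and 11 counts with vehicle and 52 and 76 with the combination (2.36 ± 0.35, adjusted p = 1.29e-04). KRT16 went from 2.32 and 2.16 to 5.79 and 5.78 CPM (1.37 ± 0.21, adjusted p = 1.40e-04) and KRT6B from 1.80 and 2.01 to 3.77 and 4.68 CPM (1.16 ± 0.21, adjusted p = 8.01e-04). The 4 tested stress keratins thus rose together, while KRT6C had at most 3 counts in every EGI-1 library. KRT34 had 7 and 2 counts with vehicle and 39 and 38 with the combination (3.16 ± 0.50, adjusted p = 2.34e-04), and DESeq2 gave it no adjusted p. Its value was 4.21 without the first vehicle library and 2.59 without the second, and it passed the low-count filter only through treated libraries. KRT13 had 18 and 18 counts with vehicle and 36 and 39 with the combination (1.14 ± 0.34, adjusted p = 0.0281). Of the 19 squamous keratins 9 were tested and 6 rose. Summed squamous keratins were 44.1 and 44.6 CPM per kb with vehicle and 66.3 and 65.7 with the combination. In the same libraries the summed fibroblast and stroma markers went from 32.1 and 30.2 to 52.3 and 44.9 CPM, nearly all COL1A1 with DCN at 0, and VWF from 2.11 and 2.27 to 7.76 and 5.96 CPM, while PECAM1 was at 3.88 and 4.24 and then at 3.56 and 4.65 CPM. The part of these markers in the keratin changes was not tested.

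Among simple biliary keratins KRT7 had 1190 and 1185 counts with vehicle and 1703 and 1946 with the combination (0.70 ± 0.08, adjusted p = 6.98e-06). KRT8 differed by a small amount, 4656 and 4614 against 5284 and 5210 CPM (0.18 ± 0.04, adjusted p = 0.00692). KRT18 (0.08 ± 0.05) and KRT19 (0.01 ± 0.06) did not pass. KRT80 (0.22 ± 0.05, adjusted p = 0.00405) and KRT15 (0.35 ± 0.10, adjusted p = 0.0269) were called with changes of similar size. KRT5 stayed between 40.4 and 45.0 CPM in the 8 EGI-1 libraries (combination against vehicle −0.08 ± 0.07), and KRT14, its partner, had at most 2 counts in any of them. KRT81 (0.05 ± 0.06) and KRT86 (0.12 ± 0.07) did not pass either.

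Without the second combination library, the one with PTPRC and CD3E counts, 8 members were called higher and none lower. KRT13 (1.24, adjusted p = 0.0702) and KRT15 (0.34, 0.114) then missed the threshold, while KRT17 (1.69, 2.24e-07), KRT6A (2.24, 0.00251), KRT16 (1.37, 0.00193), KRT6B (0.99, 0.0207), KRT34 (3.33, 0.00162), KRT7 (0.76, 7.32e-05), KRT8 and KRT80 passed. Without the first or the second vehicle library 6 members were called, and KRT8 (0.0891 and 0.109), KRT13 (0.176 and 0.126), KRT15 (0.202 and 0.110) and KRT80 (0.0844 and 0.0631) were the calls lost. Without the first combination library KRT8 (0.0595), KRT13 (0.119) and KRT15 (0.0870) were lost. KRT13 also missed the threshold with DESeq2 (0.0846).

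**Figure D4:**
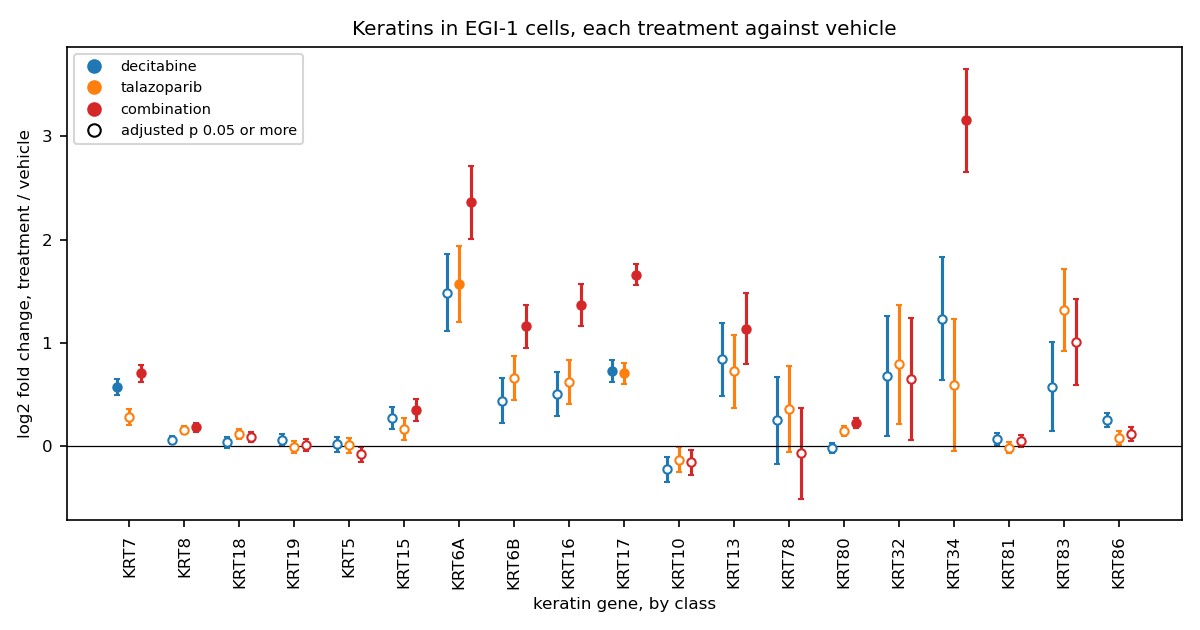
Log2 fold change of each tested keratin in EGI-1 cells for each treatment over vehicle, with the SE from the edgeR fit as bars (2 libraries per arm); filled symbols have an adjusted p under 0.05. KRT6A, KRT6B, KRT16 and KRT17 lie above 0 under each treatment, with KRT17 at 0.73, 0.70 and 1.66, whereas KRT5, KRT18, KRT19 and KRT81 lie near 0.

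The single agents gave few calls. With decitabine alone 2 of 19 members were called, both higher, against 0.518% of all genes called higher and 0.0268% lower (0.544% in either direction). These were KRT7 at 61.1 and 66.6 CPM (0.57 ± 0.08, adjusted p = 0.00174) and KRT17 at 19.9 and 19.5 CPM (0.73 ± 0.11, adjusted p = 0.00211). Both calls were lost without the first vehicle library, with an adjusted p of 0.137 for each and 0 members called. With talazoparib alone 2 members were called, both higher, against 2.83% of all genes called higher and 1.29% lower (4.12% in either direction). KRT17 stood at 19.4 and 19.3 CPM (0.70 ± 0.11, edgeR adjusted p = 6.58e-04). KRT6A, to which DESeq2 gave no adjusted p, had 22 and 59 counts (1.57 ± 0.37, edgeR adjusted p = 0.0202). The talazoparib libraries thus differed from each other in KRT6A, and its call was lost without the second of them (1.00, adjusted p = 0.341), without the first vehicle library (1.73, 0.142) or without the second (1.42, 0.239). Without the first or the second decitabine library, which enter the shared fit, 4 and 5 members were called, with KRT7 (0.0160 and 0.0162) and KRT8 (0.0181 and 0.0189) added. The comparisons with vehicle share the same vehicle libraries.

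Set against decitabine alone, the combination had 5 members higher and none lower, beside 4.42% and 3.26% of all genes (7.68% in either direction). These were KRT17 (0.93 ± 0.10, adjusted p = 1.06e-05), KRT34 (1.93 ± 0.43, 0.0101), KRT16 (0.87 ± 0.20, 0.0109), KRT6B (0.72 ± 0.20, 0.0375) and KRT80 (0.24 ± 0.05, 0.00456). Without the second combination library 3 were called, as KRT16 (0.0634) and KRT6B (0.55, 0.280) missed the threshold. Without the first combination library KRT34 (0.0817) and KRT80 (0.0515) missed it. KRT16 was lost without the second decitabine library (0.0632), and KRT6B without any one of 6 libraries. Set against talazoparib alone, 3 members were higher and none lower, beside 1.36% and 0.567% of all genes (1.92% in either direction). These were KRT17 (0.96 ± 0.10, adjusted p = 1.98e-05), KRT34 (2.57 ± 0.46, 0.00583) and KRT7 (0.42 ± 0.08, 0.00736). Without the second combination library their log2 fold changes were 0.99, 2.75 and 0.49. DESeq2 gave KRT34 no adjusted p in this comparison. KRT7 was lost without the first combination (0.0724) or the second talazoparib library (0.163), and KRT34 without the first (0.0827) or the second talazoparib library (0.0516), which left 1 member called in the latter case. KRT17 passed in each of these fits.

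The combination was also set against both single-agent effects added together in log2 units, and edgeR called a departure for no keratin. Of 19 members 0 were called with edgeR and 0 with DESeq2, and 1, KRT86 (−0.21 ± 0.10), had an unadjusted p under 0.05, beside 0.00893% of all genes called higher and 0.152% lower (0.161% in either direction). The departure was 0.23 ± 0.14 for KRT17, 0.24 ± 0.29 for KRT16, −0.69 ± 0.48 for KRT6A and 1.34 ± 0.81 for KRT34. The errors of KRT6A and KRT34 leave room for departures of either size in these libraries.

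Of the partner genes in EGI-1 with the combination, beside 11.1% of all genes tested called higher and 7.61% lower, 9 of 13 desmosome genes were tested, and 3 were higher and 1 lower, with JUP at 0.25 ± 0.06 and PKP1 at 1.95 ± 0.35. The hemidesmosome collagen COL17A1 was higher (0.90 ± 0.09). The linkers EPPK1 (1.16 ± 0.10) and EVPL (0.46 ± 0.06) were higher of 4 tested. Of 14 cornified envelope genes 9 were tested, and IVL, SPRR1B and SPRR2D were higher. SPRR1B, at 0.450 and 0.265 CPM with vehicle, passed the low-count filter only through treated libraries, so its call adds no support to this count. Of the 6 transcription factors 4 were tested, and GRHL3 was higher (0.89 ± 0.23) and KLF4 and TFAP2A lower, while TP63 stayed at or below 0.381 CPM in each EGI-1 library. Of 7 other intermediate filament genes 4 were tested, and NES (1.06 ± 0.16) and VIM (2.08 ± 0.64) were called higher. VIM was at 2.58 CPM in the second combination library and at 0.265 to 0.731 CPM in the other 7, and without that library its value was 0.56 with adjusted p = 0.647. Without that library 2 desmosome genes were higher and 1 lower, 2 cornified envelope genes were higher, and 1 transcription factor was higher and none lower.

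The decitabine effect was then compared between the lines, with the limit that HUCCT1 received 1 µM and EGI-1 0.5 µM, so line and dose cannot be told apart. Of 23 members 12 were called in the test of the difference, 6 more positive and 6 more negative in HUCCT1, against 7.48% and 7.27% of 24577 genes (14.8% in either direction). KRT14, among the 6 more positive, passed the low-count filter only through the HUCCT1 decitabine arm, where it is high. Its call adds no support to these counts. KRT7 fell in HUCCT1 and rose in EGI-1, a difference of −1.28 ± 0.13 (adjusted p = 1.99e-06). The other simple biliary keratins fell in HUCCT1 and were not called in EGI-1, with differences of −0.90 ± 0.11 for KRT8, −0.95 ± 0.11 for KRT18 and −0.67 ± 0.19 for KRT19. KRT17 rose in both lines and by more in HUCCT1 (2.61 ± 0.17, adjusted p = 4.61e-09). KRT5 differed by 2.84 ± 0.17 and KRT6B by 3.86 ± 0.28. KRT16 (0.34 ± 0.34), KRT15 (0.21 ± 0.17) and KRT34 (1.45 ± 0.80) did not pass the threshold. The call of KRT19 was lost without the second EGI-1 decitabine (adjusted p = 0.0879), the first EGI-1 vehicle (0.0727) or the second HUCCT1 vehicle library (0.179).

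**Figure D5:**
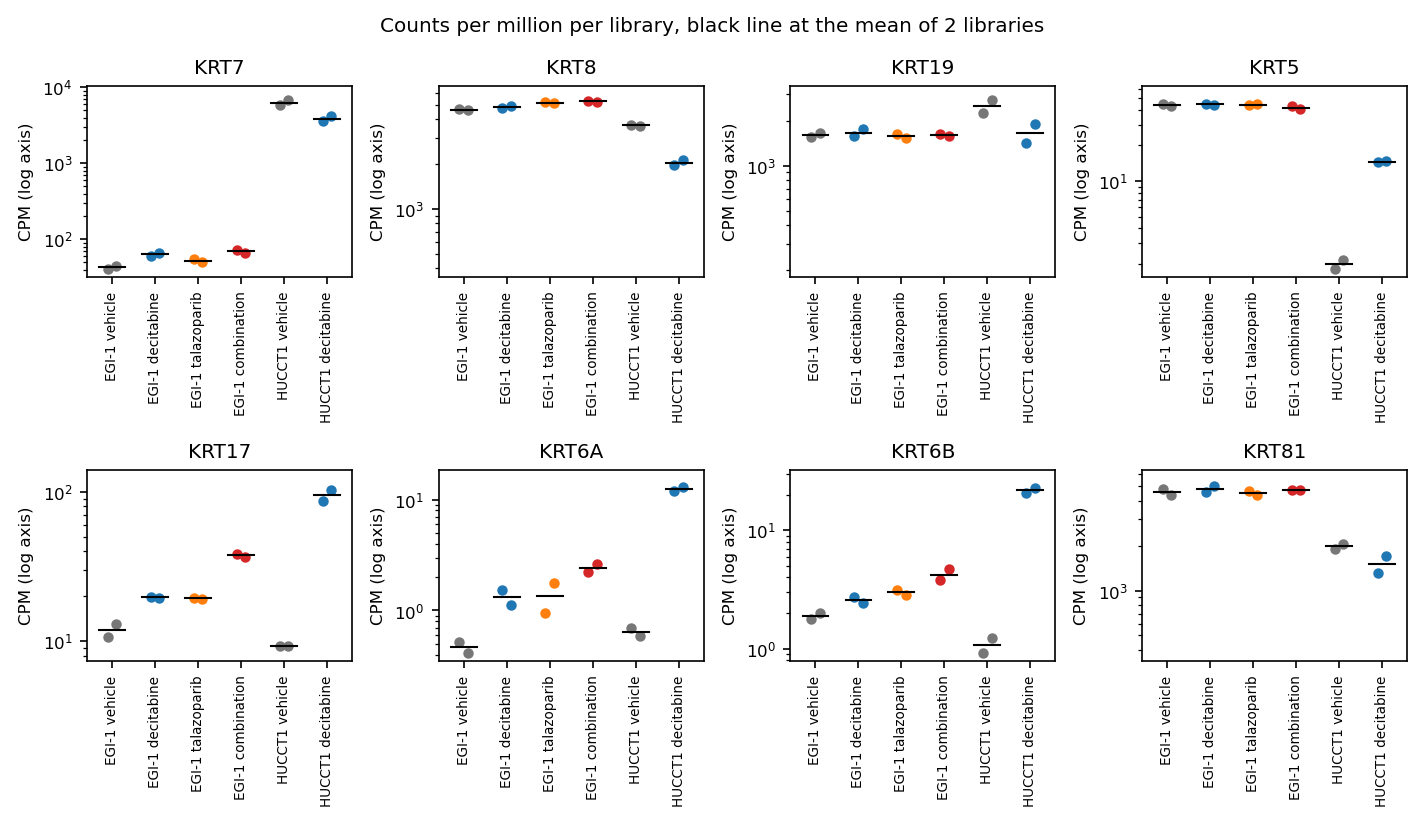
CPM of 8 keratins in each library on log axes that differ between panels, with 1 point per library and a line at the mean of 2 libraries per arm. KRT17 stands at 10.7 and 13.1 in EGI-1 vehicle and at 38.4 and 36.8 with the combination, and KRT5 stays between 40.4 and 45.0 in EGI-1 while it goes from 1.83 and 2.16 to 14.5 and 14.7 in HUCCT1.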

How the data were processed

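RNA was sequenced from 8 EGI-1 and 4 HUCCT1 libraries, grouped by the treatment in their labels. The authors deposited whole-number counts per gene without normalization. The submitters' processing notes name fastp, Trim Galore, HISAT2, featureCounts and GRCh38, whereas the paper's methods name fastp, STAR and RSEM, so the counting program is uncertain; strand use, multi-mapped reads and annotation are not given in the sources used here. HUCCT1 sequencing is described in the labels but not in the methods, and the labels and methods also differ on the RNA extraction. Of 60651 genes 60481 were matched to a GENCODE 44 symbol.

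Differences were fitted in R 4.3.3 with edgeR 4.0.16 (filterByExpr by arm, TMM, robust quasi-likelihood fit, Benjamini-Hochberg adjustment over all genes tested, adjusted p under 0.05 as a call), with the 8 EGI-1 libraries in 1 fit, the 4 HUCCT1 libraries apart and both lines' vehicle and decitabine libraries in another. The SE is the absolute log2 fold change over the square root of F. The members, classes, partner lists and tests were chosen with earlier results of these data known. Members that passed the low-count filter could be named, and partner genes by the highest mean level among those called. ZNF750 and the genes said to be so were named after their values were seen. The list of hemidesmosome genes is not reported here in full. On data simulated for the HUCCT1 design with 21657 genes, 73 of 100 genes changed 2-fold were recovered. Total counts of 23139065 to 34965627 make sampling error small for abundant keratins and large for those under 20 counts. The chi-square per gene between replicates was 2.73 to 12.6, above counting noise. Alternatives covered upper-quartile factors, no low-count filter, DESeq2 1.42.0, replicate blocks, other sample sets and leaving out each library.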

Additional observations from a re-analysis of the deposited data

Results flagged for a closer look

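The decitabine effect differed between HUCCT1 and EGI-1 for 12 keratins in a test of the difference itself (edgeR interaction, log2, HUCCT1 minus EGI-1). It was more negative in HUCCT1 for KRT7 (−1.28), KRT18 (−0.95), KRT8 (−0.90), KRT19 (−0.67), KRT80 (−0.53) and KRT81 (−0.48). It was more positive for KRT14 (5.90), KRT13 (4.61), KRT6B (3.86), KRT5 (2.84), KRT6A (2.77) and KRT17 (2.61). The KRT14 value is a fitted one that rests on at most 3 counts per library outside the HUCCT1 decitabine arm, and its adjusted p was 0.0492. KRT14 passed the low-count filter only through that arm. It missed the threshold without the first EGI-1 decitabine (0.0879), the second EGI-1 vehicle (2.69, 0.992), the second HUCCT1 decitabine (0.0701) or the second HUCCT1 vehicle library (0.0779). KRT81 had an adjusted p of 0.0358 and missed the threshold without any one of 5 libraries, with the lowest and highest values −0.69 and −0.31. The doses differed between the lines.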

How the results depend on the processing

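Direction held for the called keratins named in the report under each alternative run. The count of keratins called moved by over 1.5 times in few cases. Without the low-count filter it was 4 instead of 2 for decitabine in EGI-1 and 5 instead of 3 for the combination against talazoparib. With DESeq2 it was 3 instead of 5 for the combination against decitabine, where KRT34 had no adjusted p. With only the 4 libraries compared it was 5 instead of 2 for talazoparib. Leaving out 1 library gave 0 to 3 calls for decitabine in EGI-1, 1 to 5 for talazoparib, 6 to 10 for the combination, 3 to 5 against decitabine, 1 to 4 against talazoparib, 0 to 0 for the departure, 15 to 16 for decitabine in HUCCT1, 9 to 11 for the difference between lines and 7 to 10 between vehicle arms. Where 1 library was left in an arm, it is assumed to vary like the others. The cause of these moves was not tested. KRT19 with the combination, not called, was 0.0087 and became −0.0271 with upper-quartile factors. Leaving out 1 library it ranged from −0.031 to 0.049, with talazoparib from −0.056 to 0.030 and with decitabine from −0.031 to 0.14, and KRT18 with decitabine in EGI-1 from −0.028 to 0.093. Between vehicle arms upper-quartile factors moved the median of all genes by −0.11, where KRT78 was lost (adjusted p = 0.0811) and KRT8 was called (−0.26, 0.00539). The difference between lines for KRT81 then missed the threshold (0.0530). With all 12 libraries in 1 fit, KRT80 with the combination missed it (0.0539). Replicate numbers were not taken to pair the libraries: the correlations of deviations between same-numbered EGI-1 libraries ran from −0.47 to 0.25, and in HUCCT1 it was 0.49. A replicate block by title number kept 2 calls for decitabine in EGI-1 and moved no count by over 1.5 times. Under it KRT6B in the combination against decitabine missed the threshold (0.0626; 0.0559 with a block by library name), as did KRT78 between vehicle arms (0.0668), where KRT8 was called (0.0428). Depth limits the members under 20 counts.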
